A study of Mus musculus with 12 samples.

Results

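Bile acids and other organic anions cross the hepatocyte through a small set of membrane carriers, and the present report follows the mRNA and the nearby accessible chromatin of 10 of their genes in mouse liver, out of 24910 genes in the deposited expression table. The 10 genes are defined by their role in transport and not by their levels, and were read from the table by gene symbol, with the FPKM (fragments scaled by transcript length and by library size) summed over the transcripts of a gene. They fall into 4 genes of uptake from blood (Slc10a1, Slco1a1, Slco1a4 and Slco1b2), 3 of export across the canalicular membrane into bile (Abcb11, Abcc2 and Abcb4) and 3 of export across the basolateral membrane back into blood (Abcc3, Abcc4 and Slc51b).

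Livers came from male C57BL/6J mice in 3 groups, with 2 mice of each group profiled by RNA-seq and by FAIRE-seq. FAIRE-seq recovers DNA poor in nucleosomes from chromatin fixed with formaldehyde. Control mice, matched in age to the others, ate standard chow for 28 weeks from 8 weeks of age and had no surgery. Sham and VSG mice both received a high-fat diet with 60% of its energy from fat, starting at 8 weeks of age, for 14 weeks before and 14 weeks after surgery. In VSG (vertical sleeve gastrectomy) about 80% of the stomach was removed, while in Sham mice the stomach was isolated and pressed with forceps. Sham therefore differed from Control in both diet and operation, and these 2 factors cannot be told apart. The labels do not say more on how the 2 mice of a group relate, so p-values measure only the spread between these livers. The same Sham mice enter the comparisons with Control and with VSG, so the direction in one is not independent of the direction in the other.

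In the enterohepatic circulation, conjugated bile salts return to the liver in portal blood, are taken up by the sodium-dependent carrier NTCP, and are pumped into bile by the ATP-driven bile salt export pump BSEP. Organic anion transporting polypeptides of the Slco families take up unconjugated bile acids, bilirubin, hormones and drugs without sodium. When bile acids build up in the hepatocyte, the nuclear receptor FXR is known to raise canalicular export and the basolateral escape routes, while CAR and PXR, receptors for foreign compounds, act on several of the same genes.

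The summed FPKM over all genes lay between 420261 and 514179 per mouse, and relative depth, read from the commonest ratio of low FPKM values between mice, lay between 0.676 and 1.56 times that of Control mouse 1. FPKM carries no read count, so absolute depth is unknown. Of the genes tested, 9.66% were at least 2-fold apart between the 2 Control mice, 21.7% between the 2 Sham mice and 15.8% between the 2 VSG mice. An FPKM of exactly 0 occurred in at least 1 mouse for 15.97% of the genes tested and can be a failed estimate, since widely expressed genes such as Rxra were listed at 0 in Sham mouse 1 and above 64 in all other mice. Such values are given below as listed at 0. Hepatocyte markers were abundant in every mouse, with Apoa1, the main protein of high-density lipoprotein, between 6334 and 11117 FPKM.

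Uptake carriers were the most abundant transporters by FPKM. The genes tested were the 9869 that reached an FPKM of 1 in 2 or more of the mice. Among them Slco1b2 lay at percentile 97.2 and Slc10a1 at percentile 97.0 by the mean over 6 mice. Slco1a1 (88.2), Abcb4 (87.5), Abcc3 (82.4), Abcb11 (81.1) and Abcc2 (79.4) followed, while Slco1a4 (39.4) and Slc51b (12.1) were low. Abcc4 lay under the minimum in all 6 mice and was not tested, which leaves 9 of the 10 genes. Slc51b reached the minimum through Sham mice 1 and 2 and VSG mouse 2 only.

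No transporter passed an FDR of 10% in any comparison (limma on log2(FPKM + 1), Benjamini-Hochberg over all genes tested). For Sham against Control 0 of 9 were called, with 0.284% of all genes called; for VSG against Sham 0 of 9, with 0.0507% of all genes; and for VSG against Control 0 of 9, with 0.284% of all genes. At an unadjusted p under 0.05 the counts were 3 of 9 for Sham against Control (10.9% of all genes), 3 of 9 for VSG against Sham (4.85%) and 2 of 9 for VSG against Control (9.56%). The groups were also compared by whether both mice of one lay above both mice of the other. In VSG against Sham, 6 of 9 transporters were higher without overlap, against 18.5% of all genes, and 0 were lower, against 9.78%. In Sham against Control, 1 was higher without overlap (25.4% of all genes) and 3 were lower (20.4%). In VSG against Control, 4 were higher (33.7%) and 1 was lower (14.8%). Slc51b is the 1 higher in Sham and is among these 4, and reached the FPKM minimum through Sham and VSG mice only. It is also among the 3 of 9 for Sham against Control at an unadjusted p under 0.05 (limma). The fitted change was positive for 3 of 9 in Sham against Control, 8 of 9 in VSG against Sham and 7 of 9 in VSG against Control. The median log2 change over all genes tested was also positive in these comparisons, at 0.04, 0.08 and 0.13. The count of 8 was the same with each Sham or VSG mouse left out in turn, and leaving out a Control mouse cannot change it. With 2 mice a group these counts describe the samples, and they carry no test of the set.

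**Figure D1:**
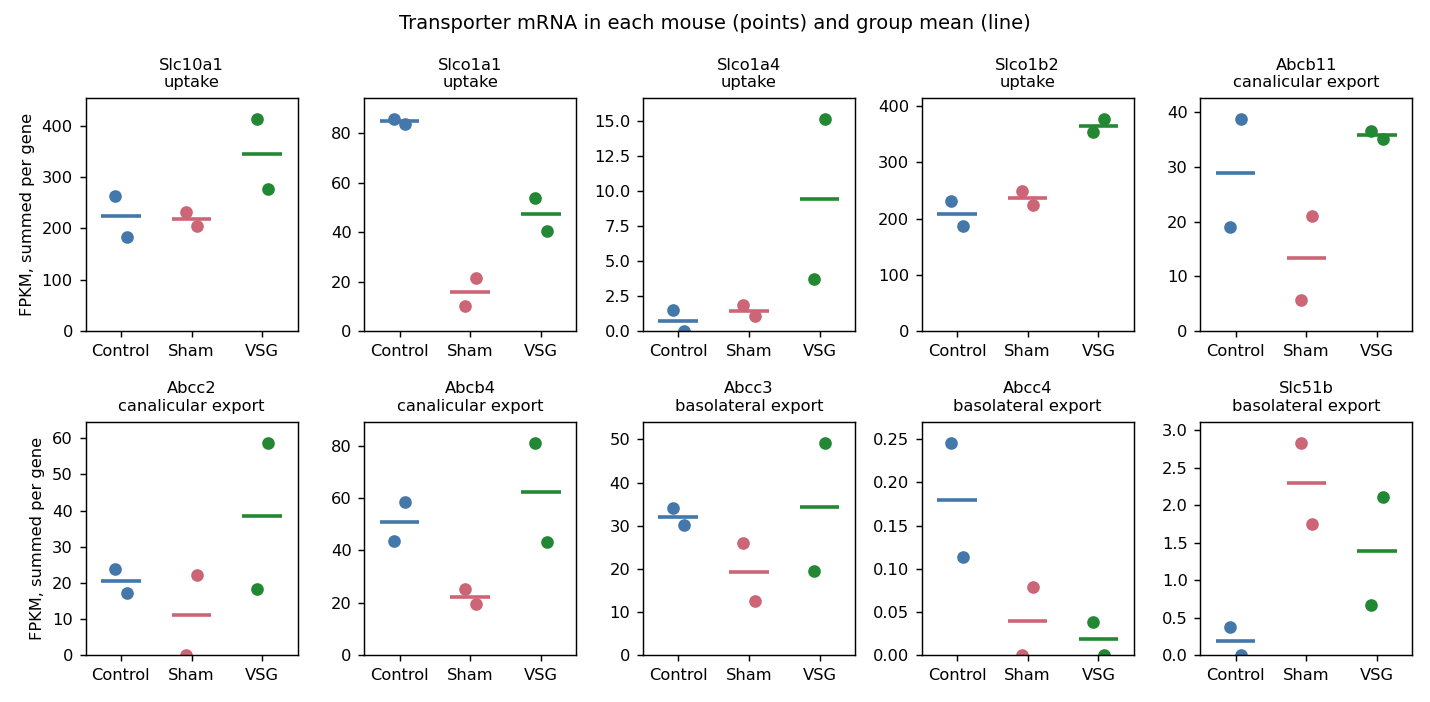
FPKM of each of the 10 transporter genes (vertical axis from 0, a scale of its own in each panel) in Control, Sham and VSG livers, with 1 point per mouse and a line at the mean of 2 mice. Both VSG mice lie above both Sham mice for Slc10a1, Slco1a1, Slco1a4, Slco1b2, Abcb11 and Abcb4, and Slco1a1 is the one tested gene in which no groups overlap.

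Slc10a1 encodes NTCP, the main carrier of conjugated bile salts from portal blood. Its FPKM was 264 and 184 in Control, 232 and 205 in Sham and 413 and 277 in VSG mice. Both VSG mice lay above every Control and Sham mouse, and the Control and Sham ranges overlapped. The log2 change of FPKM + 1 was 0.63 (SE 0.32) for VSG against Sham, with an adjusted p of 0.944, and 0.62 (SE 0.32) for VSG against Control, with an adjusted p of 0.638 (limma). Without VSG mouse 1 these were 0.34 and 0.33, and without Control mouse 2 the latter was 0.36. The change for Sham against Control was -0.02 (SE 0.32), with an adjusted p of 0.99. All of the FPKM came from transcript NM_001177561, while NM_011387 was listed at 0 in all 6 mice.

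Slco1b2 encodes the liver carrier OATP1B2, which takes up bilirubin, unconjugated bile acids and many drugs. It measured 231 and 186 FPKM in Control, 248 and 225 in Sham and 354 and 377 in VSG mice. The VSG mice again lay above all 4 other mice, and here the 2 VSG mice lay close together, at 365 ± 16.3 (SD, n = 2) against 236 ± 16.8 in Sham and 209 ± 31.8 in Control. The log2 change was 0.63 (SE 0.23, adjusted p = 0.944) for VSG against Sham and 0.81 (SE 0.23, adjusted p = 0.417) for VSG against Control in limma. For Sham against Control it was 0.19 (SE 0.23), with an adjusted p of 0.784. Slco1b2 and Slc10a1 had the most similar profiles of any pair among the 9 genes, with a root mean square difference of 0.222 in log2(FPKM + 1) over the 6 mice after each gene was centred on its mean.

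Slco1a1 encodes OATP1A1, a basolateral carrier of bile salts, steroid conjugates and drugs that is known for higher levels in male than in female mouse liver. Its FPKM was 85.8 and 83.9 in Control, 10.2 and 21.5 in Sham and 54.0 and 40.7 in VSG mice. No 2 groups overlapped, and VSG lay between Sham and Control. The mean was 84.8 ± 1.28 (SD, n = 2) in Control, 15.9 ± 7.99 in Sham and 47.3 ± 9.40 in VSG. The log2 change was -2.43 (SE 0.39, adjusted p = 0.176) for Sham against Control in limma, a value below which 1.01% of the genes tested lay. It was 1.59 (SE 0.39, adjusted p = 0.83) for VSG against Sham and -0.84 (SE 0.39, adjusted p = 0.591) for VSG against Control. Leaving out Sham mouse 2, the higher of that pair, brought the change for Sham against Control to -2.93, and leaving out Sham mouse 1 brought it to -1.93. Each of these fits holds 1 Sham mouse, so the spread is taken from the other groups. As a share of the FPKM summed over the 4 uptake genes, Slco1a1 made up 14.7% and 18.5% in Control, 2.08% and 4.77% in Sham and 6.55% and 5.73% in VSG mice. In its transcripts, 2.15% of all stretches of 50 bases were shared with other genes, among them Slco1a4, Slco1a5 and Slco1a6, so a small part of its reads could be split with these.

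Slco1a4 encodes OATP1A4, a related carrier that is known as a target of CAR and PXR. It was listed at 1.49 and 0 FPKM in Control mice, 1.90 and 1.05 in Sham mice and 3.75 and 15.1 in VSG mice. Both VSG mice exceeded the other 4, and VSG mouse 2 lay well above VSG mouse 1. Changes were 1.84 (SE 0.74, adjusted p = 0.944) for VSG against Sham and 2.47 (SE 0.74, adjusted p = 0.45) for VSG against Control on the log2(FPKM + 1) scale, by limma. Without VSG mouse 2 they were 0.96 and 1.59. For Sham against Control the change was 0.63 (SE 0.74), with an adjusted p of 0.771, and -0.03 with the value listed at 0 treated as missing. Its transcripts shared 2.68% of their stretches of 50 bases with the neighbouring Slco1a genes.

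**Figure D2:**
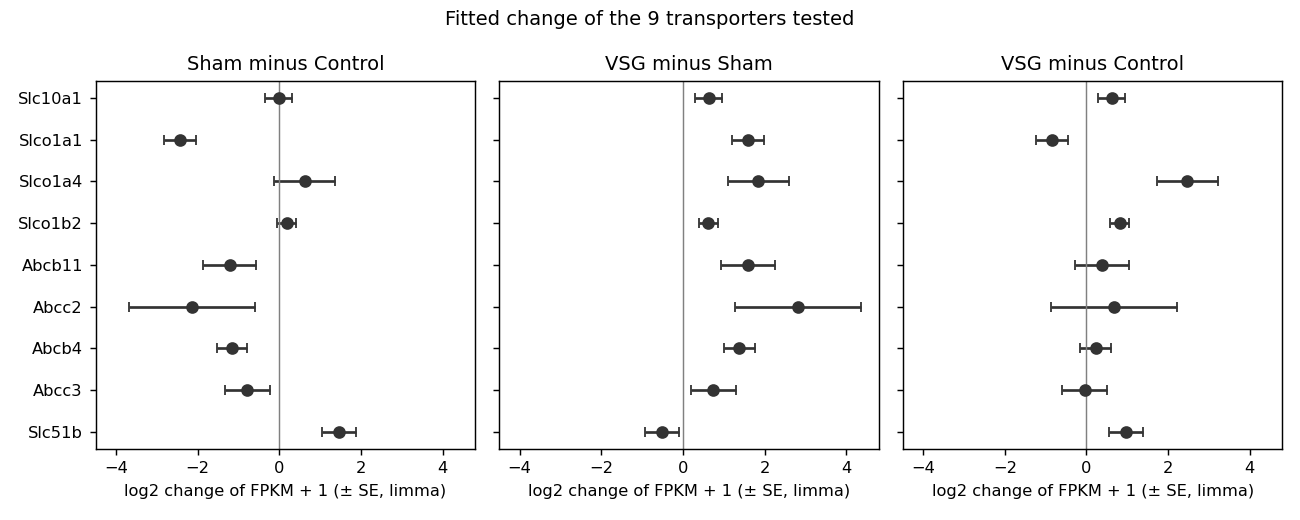
Fitted log2 change of FPKM + 1 (horizontal axis, point) with its standard error from limma (bar) for the 9 transporters tested, in the comparisons of Sham with Control, VSG with Sham and VSG with Control, 2 mice a group. In VSG minus Sham 8 of 9 points lie to the right of 0 and Slc51b lies to the left, at -0.51.

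The canalicular exporters share a pattern in their fitted changes that their single mice bear out only in part. All 3 had a negative change for Sham against Control and a positive change for VSG against Sham, with median log2 changes of -1.21 and 1.60, beside medians of 0.04 and 0.08 over all genes tested. None of the 3 had groups that separated VSG from Control.

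Abcb4 encodes MDR2, the floppase that delivers phosphatidylcholine to bile and so shields the bile ducts from bile salts. Its FPKM was 43.6 and 58.4 in Control mice, 25.3 and 19.3 in Sham mice and 81.2 and 43.4 in VSG mice. Both Sham mice lay under every other mouse, and Control and VSG overlapped. The log2 change was -1.16 (SE 0.38, adjusted p = 0.406) for Sham against Control and 1.39 (SE 0.38, adjusted p = 0.911) for VSG against Sham (limma). VSG differed from Control by 0.23 (SE 0.38), with an adjusted p of 0.882. Abcb4 shared 3.37% of its stretches of 50 bases with Abcb1a and Abcb1b, the drug efflux pumps.

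Abcb11 encodes BSEP, the pump that drives bile salts into the canaliculus. It measured 19.0 and 38.7 FPKM in Control, 5.71 and 21.0 in Sham and 36.6 and 35.0 in VSG mice. The 2 VSG mice nearly coincided and lay above both Sham mice, whereas the Control mice spanned a range that reached into the Sham values. The change was 1.60 (SE 0.65, adjusted p = 0.944) for VSG against Sham, -1.21 (SE 0.65, adjusted p = 0.56) for Sham against Control and 0.38 (SE 0.65, adjusted p = 0.886) for VSG against Control, on the log2(FPKM + 1) scale by limma. Both of the first changes depended on which Sham mouse was kept. Without Sham mouse 1 they were 0.74 and -0.35, and without Sham mouse 2 they were 2.46 and -2.07. The annotation places Gm13613 and Gm13614 on the opposite strand within the gene, and the strand setting of the library is not given in the sources used here.

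Abcc2 encodes MRP2, the exporter of bilirubin glucuronides and glutathione conjugates into bile. It was listed at 23.8 and 17.1 FPKM in Control, 0 and 22.2 in Sham and 18.3 and 58.7 in VSG mice. Every pair of groups overlapped. The value of 0 belongs to Sham mouse 1, where 5.695% of the genes tested were listed at 0, the highest share of the 6 mice. The log2 change was -2.14 (SE 1.54) for Sham against Control and 2.82 (SE 1.54) for VSG against Sham, with adjusted p of 0.64 and 0.944 (limma). With the 0 treated as missing the change for Sham against Control was 0.13, so its direction rests on that value, and the change for VSG against Sham was 0.55. For VSG against Control the change was 0.68 (SE 1.54, adjusted p = 0.921).

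The basolateral exporters, which carry bile acids and conjugates from the hepatocyte back into blood, differed in direction among themselves. Abcc3 encodes MRP3, an exporter of glucuronides and, in cholestasis, of bile salts. Its FPKM was 34.1 and 30.1 in Control, 26.0 and 12.6 in Sham and 19.4 and 49.2 in VSG mice. Both Sham mice lay under both Control mice, and VSG overlapped with each of the other groups. The log2 changes were -0.79 (SE 0.55, adjusted p = 0.633) for Sham against Control, 0.74 (SE 0.55, adjusted p = 0.944) for VSG against Sham and -0.05 (SE 0.55, adjusted p = 0.988) for VSG against Control by limma. With each mouse left out in turn the first ranged from -1.28 to -0.29 and the second from 0.09 to 1.39.

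Slc51b encodes OSTβ, which forms with OSTα (Slc51a) the facilitated exporter of bile acids that is a classical FXR target in ileum and in cholestatic liver. It was listed at 0.372 and 0 FPKM in Control mice, 2.83 and 1.75 in Sham mice and 0.673 and 2.11 in VSG mice. Sham and VSG mice all lay above the Control mice, and Sham and VSG overlapped. It was the one transporter tested that lay higher without overlap in Sham than in Control, with a log2 change of 1.47 (SE 0.42, adjusted p = 0.361, limma). Slc51b reached the FPKM minimum through Sham and VSG mice only, so it could enter the test only as a gene higher there than in Control. The change was -0.51 (SE 0.42, adjusted p = 0.944) for VSG against Sham and 0.96 (SE 0.42, adjusted p = 0.573) for VSG against Control. Without VSG mouse 1 the change against Sham was -0.06, and without VSG mouse 2 the 2 changes were -0.96 and 0.51. Its partner Slc51a was listed at 0 in 5 mice and at 0.0225 in Sham mouse 2. Rasl12 overlaps Slc51b on the opposite strand, so reads of the 2 genes may not be separable. Abcc4, which encodes MRP4, an exporter of bile acids with glutathione, was listed at 0.246 and 0.113 FPKM in Control, 0 and 0.0782 in Sham and 0.0379 and 0 in VSG mice, levels too low to compare.

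**Figure D3:**
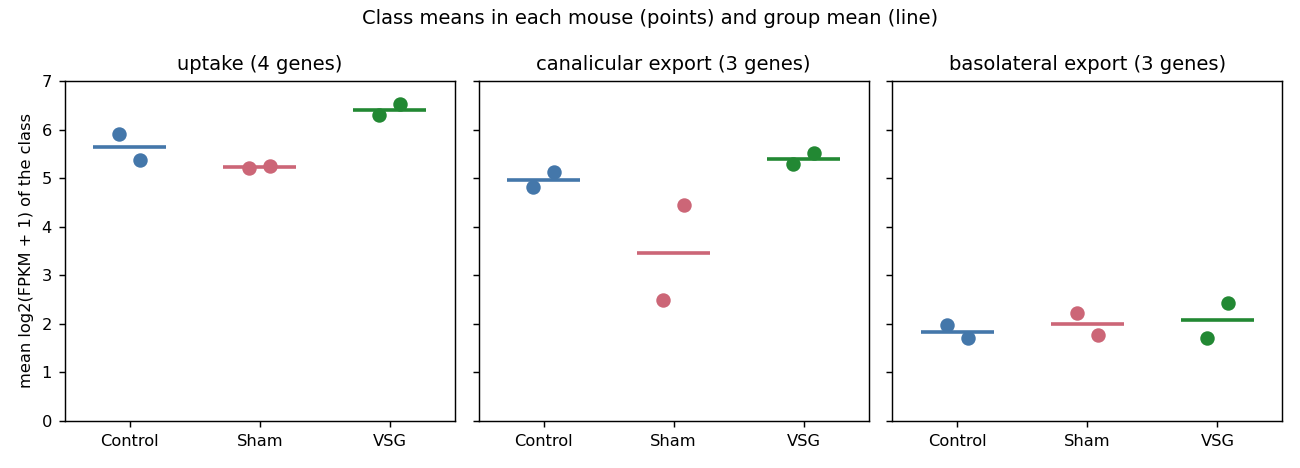
Mean log2(FPKM + 1) over the 4 uptake, 3 canalicular and 3 basolateral genes (vertical axis) in each mouse (points), with a line at the mean of each group of 2. Both VSG mice lie above every other mouse for uptake (6.30 and 6.52) and for canalicular export (5.29 and 5.51), and the spread of Sham in canalicular export comes with the value of 0 for Abcc2 in Sham mouse 1.

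Uptake was then set against export within each mouse. The mean log2(FPKM + 1) over the 4 uptake genes was 5.92 and 5.37 in Control, 5.21 and 5.26 in Sham and 6.30 and 6.52 in VSG mice, so that both VSG mice exceeded all others. The summed FPKM of these genes was 582 and 454 in Control, 492 and 452 in Sham and 824 and 710 in VSG. For canalicular export the mean was 4.81 and 5.13 in Control, 2.49 and 4.45 in Sham and 5.29 and 5.51 in VSG, with summed FPKM of 86.5 and 114, 31.0 and 62.6, and 136 and 137. Both Sham mice lay lowest and both VSG mice highest on either scale. Basolateral export overlapped between all groups, at 1.97 and 1.70 in Control, 2.23 and 1.78 in Sham and 1.71 and 2.43 in VSG. The mean of uptake minus the mean of all 6 exporters was 2.53 and 1.96 in Control, 2.85 and 2.15 in Sham and 2.80 and 2.55 in VSG, with an SD of 0.385 within groups pooled over the 3 groups. For this balance Sham overlapped with both other groups, and the lower VSG mouse exceeded the higher Control mouse by far less than that SD. Set against canalicular export alone, uptake was higher by 1.104 and 0.245 in Control, 2.73 and 0.81 in Sham and 1.011 and 1.004 in VSG, and all groups overlapped. Set against basolateral export alone, it was higher by 3.95 and 3.67 in Control, 2.98 and 3.48 in Sham and 4.58 and 4.09 in VSG, and here no groups overlapped, with Sham lowest and VSG highest. Basolateral export rests on Abcc3 with Slc51b and Abcc4, both low. No test was made on these sums.

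The makeup of the uptake pool differed more than its size between Control and Sham. Slc10a1 and Slco1b2 together held most of the uptake FPKM in each mouse, with Slc10a1 between 39.0% and 50.1% and Slco1b2 between 39.7% and 53.1%. Slco1a4 reached 2.13% in VSG mouse 2 and at most 0.454% elsewhere. In the canalicular pool Abcb4 held 50.5% and 51.2% in Control mice, 81.6% and 30.9% in Sham mice and 59.7% and 31.6% in VSG mice. Abcc2 held 42.8% in VSG mouse 2, where its FPKM was 58.7, against 13.4% in VSG mouse 1. For both genes the shares in the 2 Sham mice and in the 2 VSG mice spanned those in the Control mice.

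Markers of the cell types of liver moved between the same samples. The summed FPKM of 6 hepatocyte markers was 19602 and 16067 in Control, 15053 and 9146 in Sham and 16346 and 12073 in VSG mice. All 6 had a negative fitted change for Sham against Control (median log2 change -1.47), and 4 were lower without overlap (20.4% of all genes). The marker that passed was Tat, tyrosine aminotransferase (log2 change -2.84, SE 0.24, adjusted p = 0.0445, limma). For VSG against Sham 5 of the 6 were positive, with a median of 0.60, and 4 were higher without overlap (18.5% of all genes). For VSG against Control 5 of the 6 were negative, with a median of -0.63, and 3 were lower without overlap (14.8% of all genes). Tat passed in that comparison too (log2 change -2.47, SE 0.24, adjusted p = 0.0679, limma). None of these 6 was listed at 0, and 2 further markers of the list are not analysed here. In a bulk sample, fewer hepatocytes and less RNA of a gene per hepatocyte cannot be told apart. Kupffer cell and macrophage markers (8 genes) summed to 29.5 and 21.2 FPKM in Control, 73.9 and 65.2 in Sham and 62.2 and 208 in VSG, with VSG mouse 2 the highest. Slco1a4, Slco1b2, Abcc2 and Abcc3 were also highest in VSG mouse 2. Sinusoidal endothelial markers (7 genes) summed to 39.3 and 14.7, 6.18 and 4.92, and 24.9 and 21.8 FPKM, and stellate cell markers (7 genes) to 57.1 and 58.1, 20.4 and 32.5, and 58.0 and 81.3, both lists lowest in the Sham mice. Neutrophil markers (6 genes, Ly6g at 0 in all mice) summed to 12.4 and 4.91, 41.1 and 44.0, and 21.6 and 16.3, and lymphocyte markers (6 genes) stayed between 0.679 and 4.39. The part of these cell types in the transporter values was not tested.

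Bile duct cells also express several of these carriers. The 8 cholangiocyte markers summed to 33.9 and 36.3 FPKM in Control, 194 and 77.7 in Sham and 149 and 43.4 in VSG mice, of which Spp1 (osteopontin, also made by macrophages) gave 28.5 and 29.4, 183 and 58.4, and 143 and 29.2. The defining keratins were near 0, with Krt19 between 0.0731 and 1.01 and Krt7 between 0.0377 and 0.561. Sham mouse 1, with the highest Spp1 and the highest Slc51b, had the lowest Krt19 and Krt7.

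The chromatin around the genes was read from 3 lists of FAIRE peaks, each combining 2 mice by IDR (irreproducible discovery rate), so that no value per mouse is at hand and no test was made. Positions are on NCBIM37 (mm9). The lists held 42204 peaks for Control, 52881 for Sham and 44539 for VSG, and their union held 59246 regions. The signal of a peak is given as its percentile within its own list, because the scale of the signal differs between lists. Within 10 kb of the 10 genes lay 55 of these regions, of which 35 were present in Control, 47 in Sham and 41 in VSG. All 3 lists shared 27 of the 55 (49.1%, against 55.2% of the whole union), Sham alone held 8 (14.5%, against 17.1%), and Sham and VSG together without Control held 8 (14.5%, against 10.3%). When only the 42204 peaks of highest signal were taken from each list, the counts were 35, 38 and 40. In the 27 shared regions the percentile was higher in Sham than in Control in 20, with a median difference of 19.1 points, beside a higher percentile in 59.4% and a median of 2.68 points over the 32716 regions shared in the whole union. From Sham to VSG it was higher in 6 of the 27, with a median of -8.25 points, beside 41.2% and -2.95 points. From Control to VSG it was higher in 19 of the 27, with a median of 7.99 points, beside 53.7% and 0.726 points. A region shared by a longer list ranks higher by construction, so the percentiles were also taken within the 42204 peaks of highest signal of each list, an alternative chosen after seeing the data. The percentile was then higher in Sham than in Control in 19 of the 27 (median 11.3 points, beside 46.3% and -1.02 points over 30044 shared regions), and higher in VSG than in Control in 18 (5.76 points, beside 49.5% and -0.0675). From Sham to VSG it was higher in 13 of the 27 (-0.186 points, beside 51.3% and 0.38), so the count of 6 rests on the lengths of the lists. Regions of 1 gene share a locus and are not independent.

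**Figure D4:**
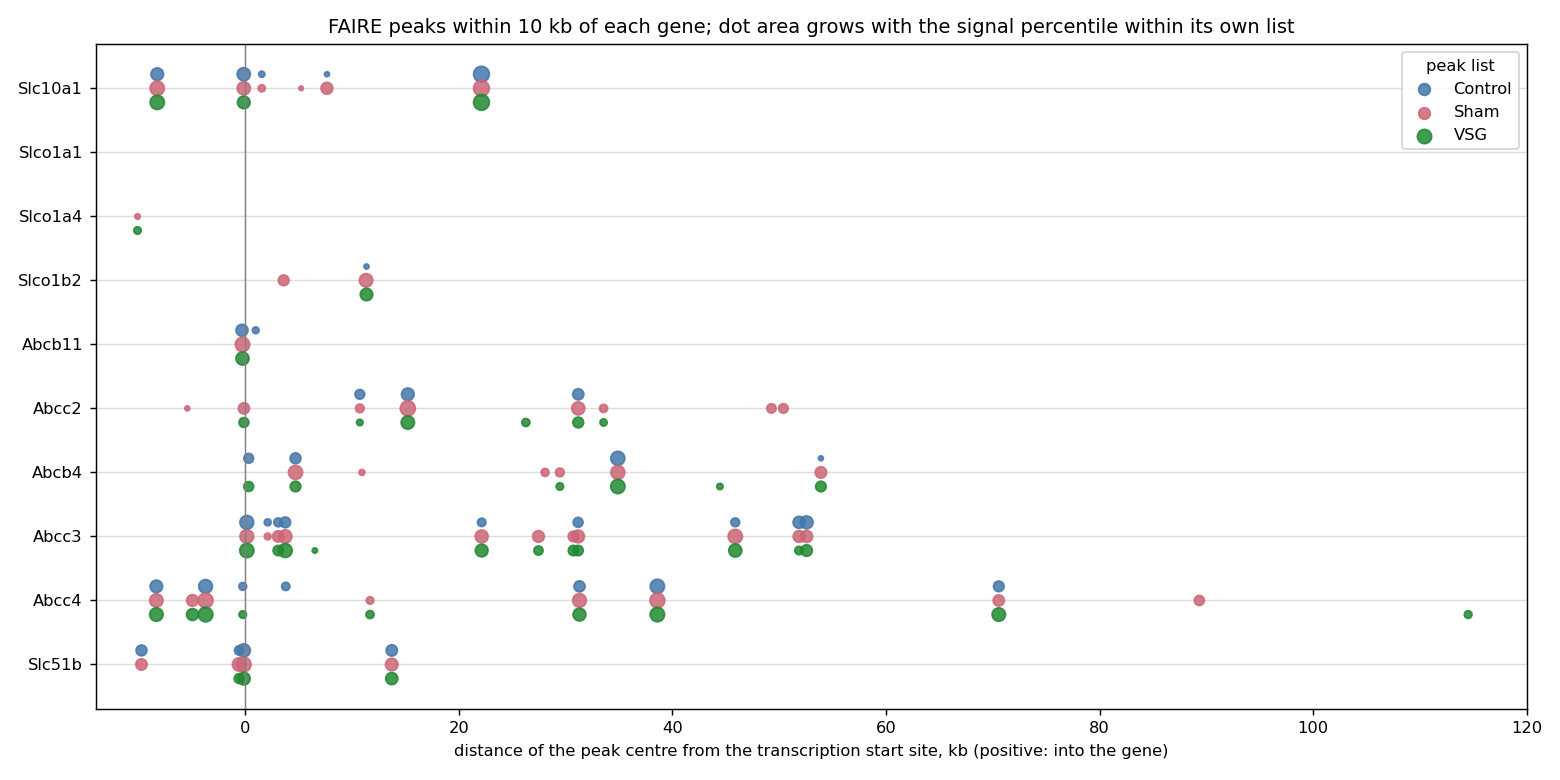
FAIRE peaks within 10 kb of each transporter gene, placed by the distance of the merged region's centre from the transcription start site in kb (positive into the gene), with 1 row of dots for each list (Control, Sham, VSG, each combining 2 mice) and a dot area that grows with the signal percentile. Slco1a1 has no dot, Slco1a4 has 1 region about 10 kb upstream, and 7 genes have a dot within 1 kb of the start in at least 1 list.

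Counting peaks within 1 kb of the transcription start site (TSS), 6 of the 10 genes had one in Control, 5 in Sham and 7 in VSG, against 48.3%, 48.1% and 49.6% of all 22367 protein-coding genes. Slc10a1, Abcb11, Abcc3 and Slc51b had one in all 3 lists. Slc10a1 (chr12:82054172-82068971, minus strand) had a peak over its TSS at percentiles 66.6, 66.6 and 60.2 in Control, Sham and VSG. The strongest region near any of the 10 genes lay beyond its 3′ end in an intron of Srsf5, a splicing factor gene, at percentiles 99.7, 99.0 and 99.4. A region in the Slc10a1 gene 7665 bases from the TSS was at percentile 2.26 in Control and 51.6 in Sham and absent from the VSG list. Abcc3 (chr11:94204612-94254311, minus strand) carried 12 regions, the most of the 10 genes, with its TSS peak at percentiles 73.9, 72.3 and 78.8. Abcc4 (chr14:118881914-119105441, minus strand) had 11 regions, among them one at -3696 bases from the TSS at percentiles 72.7, 87.2 and 83.5 and one 38602 bases into the gene at 80.4, 86.0 and 81.2, while its FPKM was under the minimum in all mice.

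The Slco1 genes, neighbours on chromosome 6, stood at the other end. Slco1a1 (chr6:141855803-141895483, minus strand) had no peak within 10 kb in any list, although its FPKM was 85.8 and 83.9 in Control mice. Slco1a4 (chr6:141753961-141804720, minus strand) had a single region, centred at -10096 bases from the TSS, in the Sham and VSG lists at percentiles 4.13 and 15.2. Slco1b2 (chr6:141578039-141635167, plus strand), the highest of the 10 genes in mean FPKM over the 6 mice, though under Slc10a1 in Control, had no TSS peak and an intronic region 11327 bases inside the gene at percentiles 2.39, 69.7 and 59.0. A second Slco1b2 region overlapping an exon was found in the Sham list only, at percentile 41.1.

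At the canalicular genes the lists differed close to the TSS. Abcb11 (chr2:69076339-69180671, minus strand) had a peak upstream of the TSS in all 3 lists, at percentiles 53.6, 80.9 and 65.2, or 53.6, 76.1 and 63.3 within lists of equal length. Counted from the TSS, with negative positions upstream, it ran from -564 to -9 in Sham, from -515 to -303 in Control and from -532 to -272 in VSG. In Sham, the list with the widest peak and the highest percentile, the mean mRNA was lowest, with mice at 5.71 and 21.0 FPKM. Control mouse 1, at 19.0 FPKM, lay between these 2 Sham mice. Without Sham mouse 1 the log2 change of Abcb11 for Sham against Control was -0.35. Abcc2 (chr19:43856682-43912441, plus strand) had a TSS peak in Sham and VSG, at percentiles 45.6 and 33.4, and none in Control. Abcb4 (chr5:8893717-8959225, plus strand) had a peak in an intron close to its TSS in Control and VSG, at percentiles 32.9 and 33.5, and none in Sham, the group with the lowest Abcb4 mRNA. A region 4723 bases into Abcb4 went the other way, at percentiles 42.5, 77.3 and 39.8, or 42.5, 71.5 and 36.5 within lists of equal length. Slc51b (chr9:65260560-65270580, minus strand) had a TSS peak at percentiles 66.0, 83.8 and 61.9 and a second peak further upstream at 28.3, 67.8 and 32.8, both highest in Sham. Within lists of equal length they were at 66.0, 79.8 and 59.8 and at 28.3, 59.7 and 29.0.

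The promoters of 5 genes are shown as examples of the situations described: Slco1a1 and Slco1b2 had no TSS peak, Abcb11 and Abcc2 had a peak whose presence or bounds differed between lists, and Slc51b had one in all 3 lists. Each holds 220 bases before the TSS and 30 from the TSS on, which is counted as 0, and is written on the strand of the gene. Capitals mark matches to the motifs described after the sequences. The windows are chr6:141895454-141895703 for Slco1a1, chr6:141577819-141578068 for Slco1b2, chr2:69180642-69180891 for Abcb11, chr19:43856462-43856711 for Abcc2 and chr9:65270551-65270800 for Slc51b.
Slco1a1: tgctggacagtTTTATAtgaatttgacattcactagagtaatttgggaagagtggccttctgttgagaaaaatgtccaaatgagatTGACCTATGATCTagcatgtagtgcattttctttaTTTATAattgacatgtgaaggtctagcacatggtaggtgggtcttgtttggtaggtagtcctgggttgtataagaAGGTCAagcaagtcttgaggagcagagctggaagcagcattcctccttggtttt
Slco1b2: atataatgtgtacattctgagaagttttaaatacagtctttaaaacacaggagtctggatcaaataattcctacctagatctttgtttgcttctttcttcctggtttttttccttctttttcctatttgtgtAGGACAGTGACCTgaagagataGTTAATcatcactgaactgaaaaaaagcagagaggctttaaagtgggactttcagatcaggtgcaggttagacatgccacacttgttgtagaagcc
Abcb11: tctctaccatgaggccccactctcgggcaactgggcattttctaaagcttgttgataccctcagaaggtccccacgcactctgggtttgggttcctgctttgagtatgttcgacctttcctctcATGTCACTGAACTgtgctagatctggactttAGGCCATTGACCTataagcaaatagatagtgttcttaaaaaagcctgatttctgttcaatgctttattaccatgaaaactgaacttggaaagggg
Abcc2: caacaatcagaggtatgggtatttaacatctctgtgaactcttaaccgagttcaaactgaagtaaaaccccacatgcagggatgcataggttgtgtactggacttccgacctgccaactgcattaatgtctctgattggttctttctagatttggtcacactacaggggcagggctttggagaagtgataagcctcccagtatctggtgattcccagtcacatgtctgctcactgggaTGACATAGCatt
Slc51b: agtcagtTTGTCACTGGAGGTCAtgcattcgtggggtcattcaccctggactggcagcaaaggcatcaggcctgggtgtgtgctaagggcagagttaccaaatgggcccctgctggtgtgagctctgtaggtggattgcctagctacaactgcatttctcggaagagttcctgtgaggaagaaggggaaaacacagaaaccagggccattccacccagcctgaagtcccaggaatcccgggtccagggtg

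Nuclear receptors bind repeats of the half-site AGGTCA, which was searched for on both strands with no mismatch and was found in 5 of the 10 promoters and in 12.2% of 22362 promoters of protein-coding genes. FXR is known to bind an inverted repeat with 1 base between the half-sites (IR-1, AGGTCANTGACCT, up to 2 mismatches), which was found in 2 of the 10 and in 0.984% of all promoters. In Abcb11 a match with 1 mismatch lay at -65 to -53, and a match with 2 mismatches at -96 to -84. Both matches lay inside the Abcb11 peak of the Sham list and outside the peaks of the Control and VSG lists, which ended further upstream. In Slco1b2 a match with 1 mismatch lay at -88 to -76, where no list had a peak. The half-sites of Slco1b2 and Abcb11 are part of these IR-1 matches.

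Direct repeats were found in 2 of the 10 genes. A repeat spaced by 1 base (DR-1, AGGTCANAGGTCA, up to 2 mismatches, 2.56% of promoters) was found in Slco1a1 at -134 to -122, overlapping 1 of its 2 half-sites. A repeat spaced by 4 bases (DR-4, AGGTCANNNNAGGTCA, up to 2 mismatches, 2.19% of promoters), a spacing known from CAR and PXR, was found in Slc51b at -213 to -198, inside the Slc51b peak of all 3 lists. The HNF1 half-site GTTAAT (5.24% of promoters) was found in Slco1b2 alone. The antioxidant response core TGACNNNGC (10.8%) was found in Abcc2, inside its peak in Sham and VSG, and in Abcc4, and the E-box CACGTG (6.94%) in Abcc4. The letters TATAAA (11.6%) were found in Slco1a1 alone, on the strand opposite to the gene. A match of letters is a description of the window and not evidence of binding.

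The other genes of the pathway were read from lists of transporters, regulators and enzymes. Of 24 related transporters 16 were tested and 0 passed the FDR of 10% in any comparison, with medians of 0.23 for Sham against Control, 0.28 for VSG against Sham and 0.13 for VSG against Control. Slc10a2, the sodium-dependent bile acid carrier of ileum and bile ducts, was listed at 0 in both Control mice, at 3.16 and 7.88 FPKM in Sham and at 0 and 5.53 in VSG (log2 change 2.60, SE 0.95, adjusted p = 0.43 for Sham against Control, limma). Slc10a2 met the FPKM minimum through Sham and VSG mice only, so it could enter the test only as a gene higher there than in Control. The Control values of 0 for Slc10a2 can be failed estimates. Abcg8, a canalicular exporter of cholesterol with Abcg5, was at 22.3 and 22.4, 12.3 and 12.7, and 13.1 and 43.2, with both Sham mice under both Control mice (-0.79, SE 0.55, adjusted p = 0.631, limma).

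Of 17 regulators 13 were tested and 0 passed. Nr1h4, which encodes FXR, was at 68.9 and 75.7 FPKM in Control, 93.8 and 85.4 in Sham and 117 and 89.4 in VSG, and its target Nr0b2 (SHP) at 19.8 and 8.21, 31.7 and 11.5, and 27.3 and 34.1. Nr1i2, which encodes PXR, was at 38.4 and 36.1 in Control, 23.2 and 30.2 in Sham and 12.5 and 17.0 in VSG. The 3 groups of Nr1i2 did not overlap and VSG was lowest, with log2 changes of -0.82 (SE 0.25, adjusted p = 0.944) against Sham and -1.29 (SE 0.25, adjusted p = 0.31) against Control by limma. Nfe2l2, which encodes the oxidative stress factor NRF2, was at 17.3 and 17.3, 21.9 and 23.9, and 28.4 and 29.7, also without overlap, and the change for VSG against Control was 0.72 (SE 0.19, adjusted p = 0.397, limma). Nr1i3, which encodes CAR, was listed at 0 in all 6 mice, and Hnf4a was listed at 0 in Sham mouse 1.

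All 12 genes of bile acid synthesis and conjugation were tested and 0 passed. Cyp7a1, the rate-limiting enzyme of the classical pathway, was listed at 2.28 and 2.60 FPKM in Control, 0 and 4.58 in Sham and 68.3 and 13.2 in VSG (log2 change 3.73, SE 1.09, adjusted p = 0.944 for VSG against Sham, limma). Cyp27a1, which starts the alternative pathway, was at 274 and 213, 136 and 100, and 165 and 128, with both Sham mice and both VSG mice under both Control mice. Slc27a5, which activates bile acids for conjugation, was at 342 and 314, 121 and 175, and 181 and 308, the Sham mice lowest.

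Of 18 CAR and PXR target enzymes, a list that Slco1a4 and Abcc2 are known to share regulators with, 17 were tested. For Sham against Control 14 had a negative change, with a median of -2.21 beside 0.04 over all genes tested. The FDR of 10% was passed by 1 gene of the 17, against 0.284% of all genes. That gene was Cyp2b10, which oxidises foreign compounds and was at 8.46 and 8.81 FPKM in Control and at 0.0389 and 0.00900 in Sham (log2 change -3.23, SE 0.23, adjusted p = 0.0244, limma). Cyp2b10 reached the FPKM minimum through the Control mice only, so it could enter the test only as a gene lower in the other groups. For VSG against Sham 16 of the 17 had a positive change, with a median of 2.08 beside 0.08 over all genes tested. In that comparison 0 passed (0.0507% of all genes), with 6 of the 17 at an unadjusted p under 0.05 (limma), against 4.85% of all genes. Cyp2c29, an enzyme of retinol and drug oxidation, was at 339 and 483 in Control, 41.5 and 11.2 in Sham and 123 and 424 in VSG. For VSG against Control 2 of the 17 passed, against 0.284% of all genes. Cyp2b10 was at 0.135 and 0 in VSG (log2 change -3.18, adjusted p = 0.0289, limma). Cyp3a25 was listed at 0 in both Control mice, and its VSG values were 114 and 724 (log2 change 8.17, adjusted p = 0.0963, limma). No fold is given against values of 0. Cyp3a25 met the FPKM minimum through Sham and VSG mice only, so it could enter only as a gene higher there than in Control. Its Control values of 0 can be failed estimates, and with these treated as missing no Control value is left. The study reports lower Cyp3a25 in Sham than in Control, the opposite of the values listed here.

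**Figure D5:**
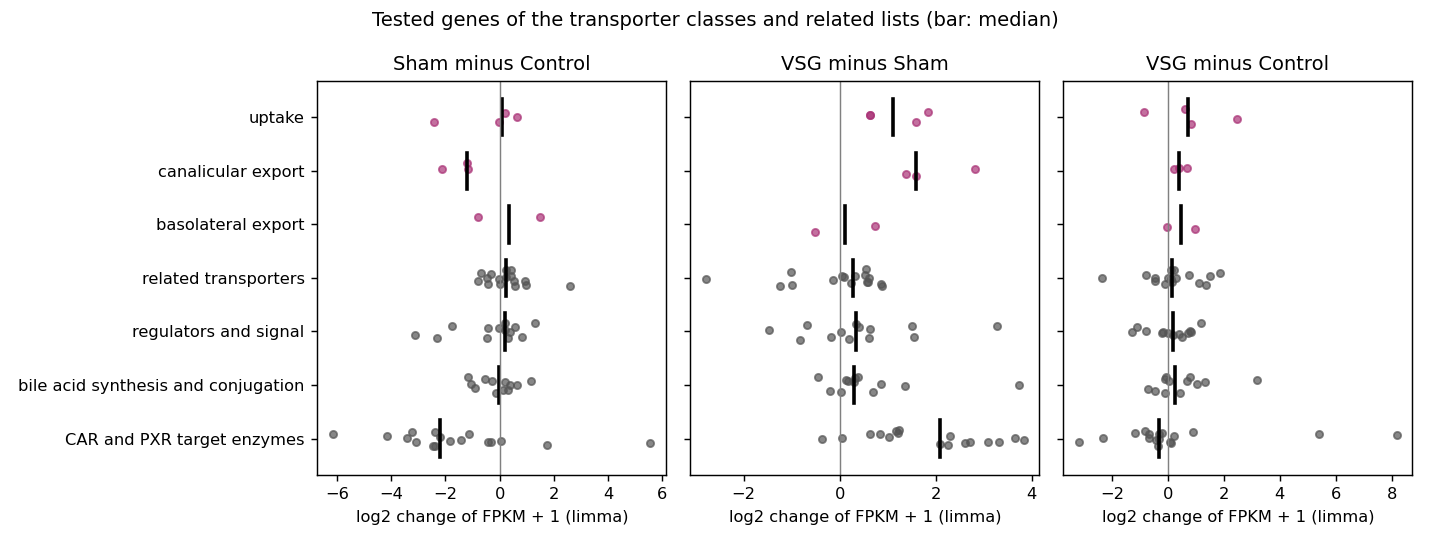
Log2 change of FPKM + 1 from limma (horizontal axis) for each tested gene of the 3 transporter classes (coloured) and the 4 related lists (grey), with a bar at the median, in the 3 comparisons. The CAR and PXR target enzymes have medians of -2.21 for Sham minus Control and 2.08 for VSG minus Sham, and the canalicular exporters have medians of -1.21 and 1.60.

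The genes with the profiles most like each transporter were found by the root mean square difference of log2(FPKM + 1) over the 6 mice, each gene centred on its mean, and the values are descriptions across few mice. Slc10a1 lay nearest to Kptn (0.0957) and Tbc1d10a (0.111), Slco1b2 to Pwwp2a (0.103) and Mmp19 (0.111), Abcc3 to Sqor (0.143) and Cryl1 (0.148), and Abcb4 to Rubcn (0.220) and Spg7 (0.232). Slco1a1 lay nearest to Cpeb2 (0.245), which was listed at 0 in Sham mouse 1, and to Rnf169 (0.294), and Slco1a4 to Apol7a (0.349) and the macrophage gene Cd5l (0.388). Slc51b lay nearest to Ccl2 (0.187), a chemokine that draws monocytes, which was at 0.586 and 0.0703 FPKM in Control, 2.34 and 1.70 in Sham and 0.884 and 1.53 in VSG, and to AB124611 (0.206). Abcb11 lay nearest to Nmnat1 (0.198) and Peli1 (0.241), and Abcc2 to Shmt1 (0.416) and Anxa7 (0.438), and these 4 genes were each listed at 0 in Sham mouse 1, the mouse with the lowest Abcb11 and the 0 of Abcc2.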

How the data were processed

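RNA and FAIRE libraries from 2 mice in each of 3 groups were analysed, and the 10 genes and the other lists were chosen with earlier results of these data known. The deposited FPKM of each RefSeq transcript comes from Cufflinks, run by the authors on TopHat2 alignments to mm9. The labels name poly(A) RNA and the study's methods rRNA depletion, which was not settled. FAIRE peaks and their signal were made by the authors with bowtie1, F-seq and IDR, with the mice of a group combined. The deposited tables of fold changes and p-values, and the deposited lists of variable sites, hold the authors' own comparisons and were not used.

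Of 34933 transcript identifiers, 34046 carried a gene symbol, and their FPKM was summed to 24910 genes. A count test was not used, because the table analysed here holds FPKM and not counts. The 9869 genes that reached an FPKM of 1 in 2 or more mice entered a limma fit of log2(FPKM + 1), with moderated variance, a mean trend and all 6 mice together (limma 3.58.1, R 4.3.3). Adjusted p-values follow Benjamini-Hochberg over these genes, at an FDR of 10%. Fold changes on this scale understate the change of low genes. The fit was tested on simulated data.

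Peaks were merged when they overlapped or touched. A union region was present with an overlap of at least 1 bp. Gene models and sequence came from NCBIM37 with GENCODE M1, where Slc51b is named Ostb. Shared stretches of 50 bases were counted on its protein-coding transcripts. Named genes are all 10 transporters, from each related list up to 2 tested genes per direction and comparison with the smallest unadjusted p and groups that did not overlap, and the 2 genes nearest in profile to each transporter. A gene that this rule names is not reported here. Nr1h4, Nr0b2, Nr1i3, Hnf4a, Slc51a, Rxra and the markers were named after their values were seen. Alternatives were another pseudocount, no filter, scaling by size factors, single transcripts, a replicate block, fits of 2 groups, each mouse left out, wider windows and stricter peaks. Treating values of 0 as missing was chosen after seeing the data. Python 3.11.15, pandas 2.3.3, numpy 2.4.6 and matplotlib 3.10.9 served the other steps.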

Additional observations from a re-analysis of the deposited data

How the results depend on the processing

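Of 351 values of the transporters' changes under alternatives, 339 kept their direction and their side of the FDR of 10%. Part of these could not turn direction. No filter, the replicate block, fits of 2 groups and single transcripts left each fitted change of these genes as it was. So did leaving out a mouse of the group not compared. These alternatives could move only the adjusted p. Of the others, 11 turned direction, 9 of these with 1 mouse left out, and 1 changed its side of the FDR. That value was Slco1a1 in Sham against Control without Sham mouse 2 (-2.93), a fit with 1 Sham mouse. Left out in turn, the mice gave ranges of 0 to 1 for calls in Sham against Control, -0.28 to 0.24 for Slc10a1, -0.0332 to 1.28 for Slco1a4 and -4.41 to 0.13 for Abcc2 in Sham against Control, and -0.11 to 0.88 for Abcb11, -0.14 to 1.495 for Abcc2, -0.22 to 0.67 for Abcb4 and -0.70 to 0.61 for Abcc3 in VSG against Control. A lone mouse was assumed to vary like the other groups. With values of 0 as missing, Slco1a4 was at -0.0332 and Abcc2 at 0.13 in Sham against Control. The balance of uptake minus export for Sham minus Control was 0.68 with a pseudocount of 0.1 and 0.84 on summed FPKM, and for VSG minus Sham -0.64 on summed FPKM. Peaks within 50 kb numbered 66, 90 and 75 in Control, Sham and VSG. With the 50% of peaks of highest signal they numbered 13, 25 and 19, and 4 genes had a TSS peak in VSG.

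Same-numbered mice were not paired by the labels, and their deviations correlated at 0.118, 0.064 and 0.039 between groups. The replicate block left 0 transporters called, and 9, 0 and 10 of all genes against 28, 5 and 28. Over all genes the calls were 64, 6 and 41 without a filter, 17, 0 and 31 with 2 groups in a fit, 7, 0 and 1 with 0 as missing, and from 0 to 168, 0 to 76 and 0 to 34 with 1 mouse left out. Size factors moved the median log2 change of all genes for VSG against Control from 0.13 to -0.04 and turned no transporter. The 2 mice a group and the unknown depth limit these values, and peak lists that combine mice carry no error.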
